A study of Mus musculus with 62 samples.

Results

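Azgp1 is the mouse gene for zinc-alpha2-glycoprotein, and it is 1 of 47643 gene symbols in the deposited table of white adipose tissue RNA sequencing. Its values were taken from the table by symbol, with no threshold on any measured value, but the gene was picked for study with earlier results of these data known. The study followed female mice, 2 months old, after injection of cachectic melanoma cells (CAC), after injection of non-cachectic melanoma cells (NCAC), and after a mock injection (Con). Tissue was taken at 2, 4, 6 and 8 weeks. The 3 arms and 4 times give 12 groups of 5 libraries each, except for the CAC group at 8 weeks, which has 7, and 62 libraries in all. The series record gives NCI Ath/nude mice, which lack a thymus, whereas the strain tag of each sample gives C57BL6/J, and the sources used here do not settle which holds. Arms were read from the sample descriptions, because the treatment tag reads the same in all samples. No genotype or transgene is named, the melanoma lines are not named, and which fat depot was taken is not stated. The labels call the replicates biological without saying that each is a separate animal, so the p-values measure the spread between these libraries.

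Zinc-alpha2-glycoprotein is a small secreted glycoprotein of plasma and other body fluids, named for its precipitation with zinc. Its fold resembles the heavy chain of MHC class I, but it does not present peptides to T cells. It was purified as a lipid-mobilizing factor from tumour-bearing animals and patients losing weight, and adipocytes and liver both make it. Work in cultured fat cells has linked it to lipolysis through beta-adrenergic receptors and cyclic AMP, and glucocorticoids are known to raise its mRNA.

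Azgp1 lies on the plus strand of mouse chromosome 5, at chr5:137981520-137990233 on GRCm38 (mm10) by the GENCODE M21 annotation, with the identifier ENSMUSG00000037053.6. Its protein-coding transcript, Azgp1-201, has 4 exons, a length of 1297 bases and 921 coding bases without the stop codon. The 250 bases before the RefSeq start site (GRCm38.p6, chr5:137981271-137981520, plus strand) are shown because they hold the proximal promoter, just outside the measured transcript. A CCAAT box on the minus strand, read here as ATTGG, is in capitals.

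Azgp1 upstream: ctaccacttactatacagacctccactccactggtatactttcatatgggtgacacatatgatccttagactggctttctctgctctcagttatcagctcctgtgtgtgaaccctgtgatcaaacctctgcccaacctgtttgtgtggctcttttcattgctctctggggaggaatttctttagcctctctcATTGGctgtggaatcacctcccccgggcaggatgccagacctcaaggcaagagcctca

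The box begins 58 bases before the start site and overlaps no other motif searched. CCAAT or its reverse complement ATTGG is present in 33.8% of the 32851 windows of the same length in the RefSeq table. None of 4 other motifs searched on both strands had its letters in this window. They were the glucocorticoid half-site AGAACA (in 16.1% of windows), the full element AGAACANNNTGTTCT (0.00913%), the STAT site TTCCNGGAA (0.913%) and the E-box CACGTG (6.02%). A match or its absence describes these letters only.

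The libraries held 11783 to 14470 genes at 1 TPM or more, and mitochondrially encoded transcripts took 17.2% to 44.4% of TPM. The read depth is not known, so the counting error of low values cannot be given. Azgp1 was a low transcript in most of these fat libraries. TPM (a transcript's share of the library after correction for its length) ranged from 0 to 30.04 over the 62 libraries, with a median of 1.85. It was below 1 TPM in 20 libraries and at 5 TPM or more in 12, of which 8 were CAC libraries. By mean TPM it ranked 10739 among the 14577 genes tested over all libraries, 12300 in mock tissue at 8 weeks and 6290 in CAC tissue at 8 weeks.

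At 2 weeks the 3 arms overlapped. The CAC libraries had 0.701, 2.59, 3.52, 2.75 and 0.164 TPM. The NCAC libraries had 2.66, 4.85, 0.220, 0.427 and 0.866 TPM, and the mock libraries 0.920, 0.311, 1.21, 1.54 and 1.94 TPM. Both melanoma arms thus had libraries above and below the mock range.

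At 4 weeks the CAC libraries had 1.76, 1.70, 0.273, 5.22 and 2.37 TPM. The NCAC libraries had 2.14, 0.115, 1.74 and 1.62 TPM, and the fifth was listed at 0. The mock libraries had 0.119, 0.897, 0.0662, 2.03 and 0.228 TPM. All 5 CAC libraries were above the mock median, but only 2 were above the highest mock library.

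At 6 weeks the CAC libraries had 4.41, 1.64, 1.57, 4.24 and 12.5 TPM. The NCAC libraries had 2.99, 3.05, 0.601, 3.03 and 4.32 TPM, and the mock libraries 3.69, 3.80, 6.27, 1.70 and 5.76 TPM. One CAC library, replicate 5, exceeded the highest mock value, and the other 4 lay within or below the mock range.

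At 8 weeks the lowest of the 7 CAC libraries had 1.96 TPM, the median was 15.3 TPM and the highest 30.04 TPM. The mock libraries had 0.641, 1.4996, 2.60, 5.09 and 0.825 TPM, and 6 of the 7 CAC libraries lay above all of them. Replicate 2, with the lowest value, fell inside the mock range. Of the 14577 genes tested, 406 (2.79%) had at least 6 of the 7 CAC libraries above every mock library. The NCAC libraries had 1.40, 0.553, 17.9, 0.527 and 0.148 TPM, so that replicate 3 lay among the high CAC libraries and the other 4 lay below every CAC library.

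**Figure D1:**
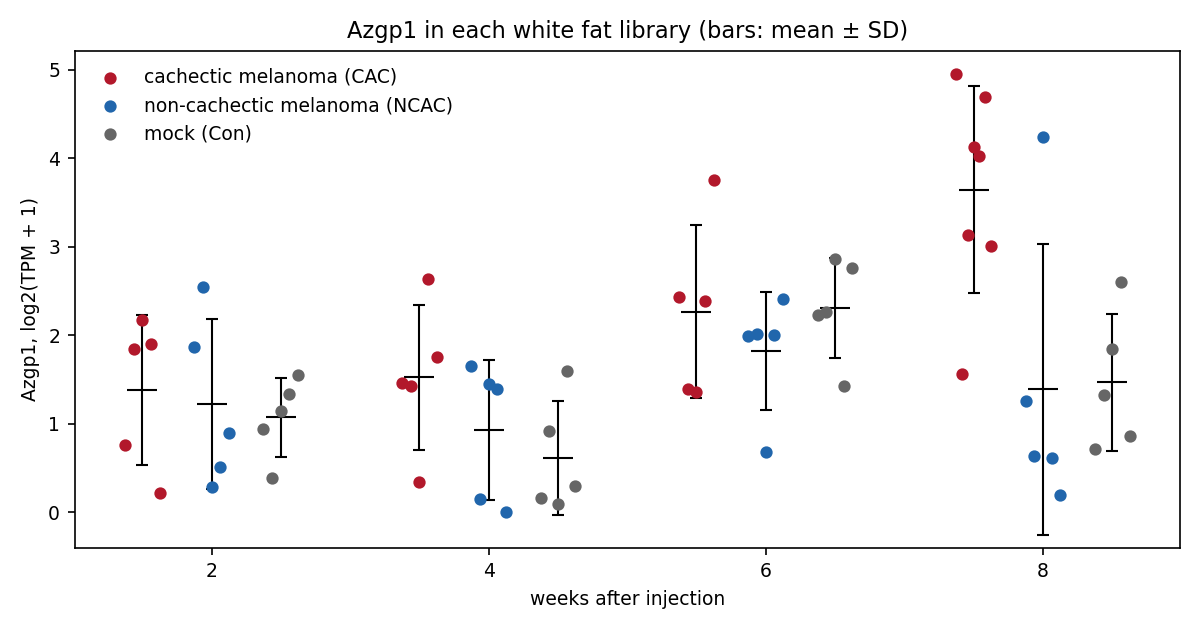
Azgp1 on the log2(TPM + 1) scale (vertical axis) in each of the 62 libraries by weeks after injection (horizontal axis). Points are libraries coloured by arm, and bars give the group mean and SD; at 8 weeks 6 of 7 CAC libraries sit above every mock library, and 1 NCAC library sits among them.

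Azgp1 was higher in CAC than in mock fat at 8 weeks. Mean levels were 14.8 ± 10.1 TPM (SD, n = 7) in CAC and 2.13 ± 1.82 TPM (SD, n = 5) in mock tissue. On the log2(TPM + 1) scale, which understates changes of low genes, the difference was 2.17 (SE 0.53, limma with Benjamini-Hochberg adjustment over all genes, adjusted p = 0.0447). In this comparison 448 of 14577 genes (3.07%) passed the adjusted threshold of 0.05, of which 158 were higher (1.08%) and 290 lower (1.99%). With the mitochondrially encoded genes left out before rescaling, 250 were higher and 1811 lower. An exact two-sided permutation test on Azgp1 alone gave p = 0.00758, or 0.0758 after adjustment over the 15 such tests made on the gene. The smallest p that 7 against 5 libraries allow is 0.00253.

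The call at 8 weeks sat close to its threshold. It held without CAC replicate 2 (limma adjusted p = 0.0156), without CAC replicate 3 (0.0412) and without mock replicate 4 (0.0449). It was lost without CAC replicate 1 (limma adjusted p = 0.0630), 4 (0.0903), 5 (0.0834), 6 (0.0900) or 7 (0.0738). It was also lost without mock replicate 1 (limma adjusted p = 0.0811), 2 (0.0936), 3 (0.0534) or 5 (0.103). The log2 difference lay between 1.96 and 2.52 in these 12 fits.

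Against the NCAC arm at 8 weeks the log2 difference was of like size, 2.26 (SE 0.71), but did not pass (limma adjusted p = 0.134; 0.528% of genes did). With the mean log2(TPM + 1) of the fibroblast and progenitor markers as a stromal covariate it was 0.89 (SE 0.74, limma adjusted p = 0.955). All 7 CAC libraries were above the NCAC median, and the exact permutation p was 0.0303, or 0.152 over the 15 tests. Without NCAC replicate 3 the difference was 2.97 (limma adjusted p = 0.00897). NCAC and mock tissue did not differ detectably at 8 weeks, with a log2 difference of -0.08 (SE 0.70, limma adjusted p = 1.00).

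No difference at an earlier week passed the test. The log2 difference between CAC and mock was 0.31 (SE 0.39) at 2 weeks, 0.91 (SE 0.41) at 4 weeks and -0.04 (SE 0.45) at 6 weeks, with limma adjusted p of 0.999, 1.00 and 0.993. The shares of genes that passed in these comparisons were 0.00686%, 0.00686% and 0.357%. At 4 weeks the exact permutation p was 0.0794, where 0.00794 is the smallest that 5 against 5 libraries allow. CAC and NCAC differed by 0.16, 0.60 and 0.45 at 2, 4 and 6 weeks, and NCAC and mock by 0.15, 0.32 and -0.49, all with limma adjusted p of 0.579 or more. Of these, CAC against NCAC at 6 weeks was the one in which other genes passed (5.78%).

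The change of the CAC effect with time was not established. The difference between CAC and mock was larger at 8 weeks than at 2 weeks by 1.87 (SE 0.72) and than at 6 weeks by 2.21 (SE 0.75). Neither interaction passed (limma adjusted p = 0.495 and 1.00, with unadjusted p of 0.0172 and 0.00761). Of all genes, 0.0549% passed the first interaction and 0 the second (116 at an unadjusted p under 0.05). The difference at 6 weeks minus that at 2 weeks was -0.35 (SE 0.63, limma adjusted p = 0.996, with 0.0686% of genes past the test). Within the CAC arm, week 8 exceeded week 2 by 2.26 (SE 0.55, limma adjusted p = 0.0771, with 0.796% of genes past the test; without CAC replicate 2 of week 8, 2.61 and 0.0346), and 6 of 7 libraries at week 8 were above all 5 at week 2. The same span gave 0.17 (SE 0.74) in the NCAC arm and 0.40 (SE 0.36) in the mock arm, with limma adjusted p of 0.972 and 0.789.

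**Figure D2:**
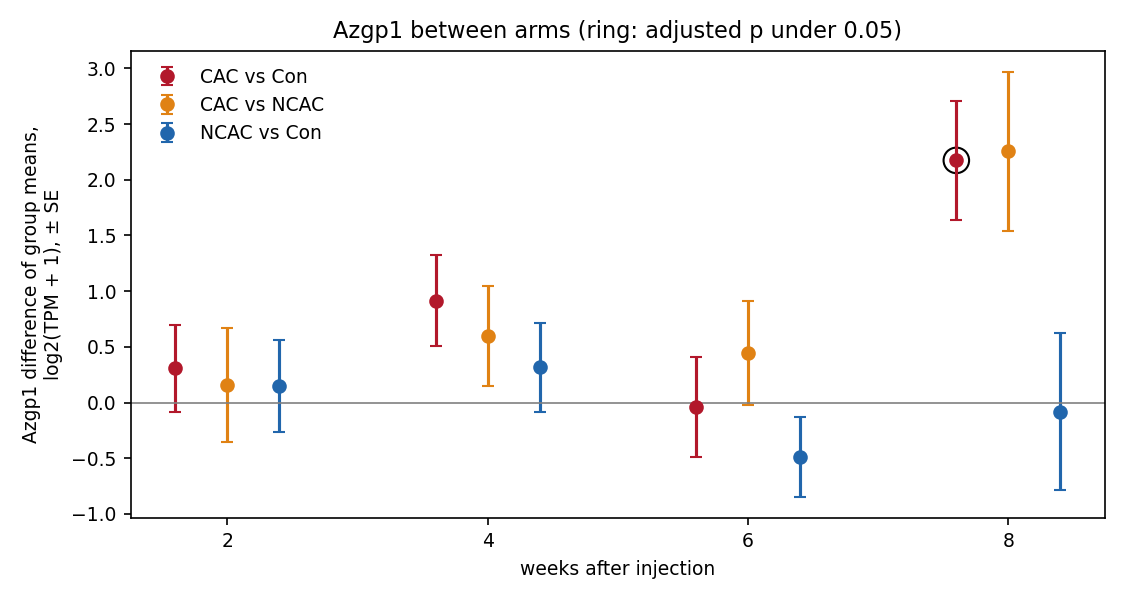
Differences of Azgp1 group means between arms on the log2(TPM + 1) scale (vertical axis) at each week (horizontal axis). Bars are standard errors and the ring marks adjusted p under 0.05; CAC stood 2.17 above mock and 2.26 above NCAC at 8 weeks, and the ring is on the first of these.

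Ordered by mean log2(TPM + 1), the CAC group at 8 weeks stood first at 3.65 ± 1.17 (SD, n = 7). Its gap of 1.34 to the next group, mock at 6 weeks (2.31 ± 0.57, n = 5), was the only one of 11 neighbouring gaps larger than the larger SD of its pair. The other 10 gaps were between 0.0072 and 0.45. After mock at 6 weeks came CAC at 6 weeks (2.27), NCAC at 6 weeks (1.82), CAC at 4 weeks (1.53), mock at 8 weeks (1.47) and NCAC at 8 weeks (1.39). The lowest were CAC at 2 weeks (1.38), NCAC at 2 weeks (1.22), mock at 2 weeks (1.08), NCAC at 4 weeks (0.93) and mock at 4 weeks (0.61). All 3 arms at 6 weeks thus stood above every remaining group but CAC at 8 weeks.

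The makeup of the libraries moved with Azgp1 in several ways. White fat carries adipocytes with stromal, vascular and immune cells, and in bulk tissue fewer cells of a type and less RNA per cell cannot be told apart. All 6 adipocyte markers (Adipoq, Plin1, Lipe, Cidec, Fabp4 and Pparg) were well expressed, with sums from 16397 to 51383 TPM over the groups at 8 weeks. CAC replicates 1 and 6 at 8 weeks had the highest Azgp1, 30.04 and 24.9 TPM, and the lowest adipocyte sums of their group, 21516 and 22621 TPM. With both left out the log2 difference between CAC and mock was 1.70 (SE 0.50, limma adjusted p = 0.106).

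Liver makes much Azgp1, so 8 hepatocyte markers were summed as well. Their sum was 5.64 to 44.6 TPM in CAC libraries and 7.25 to 18.8 TPM in mock libraries at 8 weeks. The 2 highest sums, 44.6 and 35.6 TPM, were again in CAC replicates 1 and 6. Ahsg, which encodes fetuin-A, gave 29.96 and 22.3 TPM of them. Apoa2 (5.84 and 7.08 TPM) and Apoa1 (3.80 and 3.08 TPM) were also highest there, whereas albumin (Alb) was at 0.122 and 0.312 TPM. Between mock and CAC tissue at 8 weeks 6 of 7 tested markers had positive differences (median of the 7, 0.51), none of which passed. Alb fell by 1.95 log2 units (SE 0.42; adjusted p = 0.0275 by limma) and was the 1 that passed. Across the 22 CAC libraries Apoa2 had Pearson r = 0.81 with Azgp1 (Spearman rho = 0.75, permutation adjusted p = 0.0026 and 0.0127). Alb had r = -0.67 (rho = -0.61, 0.0221 and 0.0791), and the median r of the 7 was 0.33, beside -0.14 over all genes. Liver marker sums were far higher in NCAC replicate 2 at 2 weeks (395 TPM) and mock replicate 5 at 6 weeks (406 TPM), where Azgp1 had 4.85 and 5.76 TPM. With the liver sum as a covariate the difference at 8 weeks was 2.04 (SE 0.49, limma adjusted p = 0.0361). That sum joins Alb, which ran against Azgp1 in CAC libraries, with Apoa2, which ran with it, so it does not adjust for either alone.

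Glands of the skin and mouth also make Azgp1. Over the CAC libraries at 8 weeks the 6 salivary and lacrimal markers summed to at most 0.712 TPM, with 3 of the 6 at 0 in all 7 libraries, against 1.41 to 13.8 TPM in mock libraries. Mammary epithelial markers (8 genes, mainly keratins) summed to 7.48 to 136 TPM in CAC and 9.49 to 207 TPM in mock libraries, with none of the 4 tested passing. Urothelial markers summed to more than 100 TPM in 3 of 7 CAC and 1 of 5 mock libraries at 8 weeks. Without such libraries the difference was 2.07 (SE 0.71, limma adjusted p = 0.358).

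Fibroblast and progenitor markers were lower in CAC fat at 8 weeks. Of 8 such markers 5 fell at 8 weeks against mock (Dpt, Lum, Col1a1, Col3a1 and Mfap5), in a comparison in which 1.99% of all genes were lower. Without 1 library at a time the calls of Dpt and Col3a1 held in all 12 fits. Col1a1 held in 10 (limma adjusted p = 0.0525 without CAC replicate 7), Lum in 4 (0.101 without mock replicate 5) and Mfap5 in 4 (0.0630 without mock replicate 2). The summed level of the 8 markers was 200.4 to 550 TPM in CAC against 920 to 6055 TPM in mock libraries, with no overlap. With the mean log2(TPM + 1) of the 8 markers as a stromal covariate, the CAC difference in Azgp1 was 1.62 (SE 1.00, limma adjusted p = 0.591). Across the 22 CAC libraries all 8 markers had negative Pearson r with Azgp1, with a median of -0.58 beside -0.14 over all genes. Of these Dpt (r = -0.73, rho = -0.68), Lum (-0.64, rho -0.59) and Col3a1 (-0.65, rho -0.58) passed, with permutation adjusted p of 0.0095, 0.0314 and 0.0297 for r and 0.0412, 0.0865 and 0.0999 for rho. Leaving out the 2 libraries farthest from the median Azgp1 gave r of -0.77, -0.70 and -0.56, beside a median of -0.42 over all genes. In the 22 libraries 3.66% of all genes passed with negative r. With each week's mean removed the median of the 8 markers was -0.55, beside -0.23 over all genes. Dpt (-0.68, permutation adjusted p = 0.0406) and Lum (-0.71, 0.0385) passed there. Because the summed level of these markers separates CAC from mock libraries at 8 weeks, the part of the stromal markers and that of the arm cannot be told apart there.

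**Figure D3:**
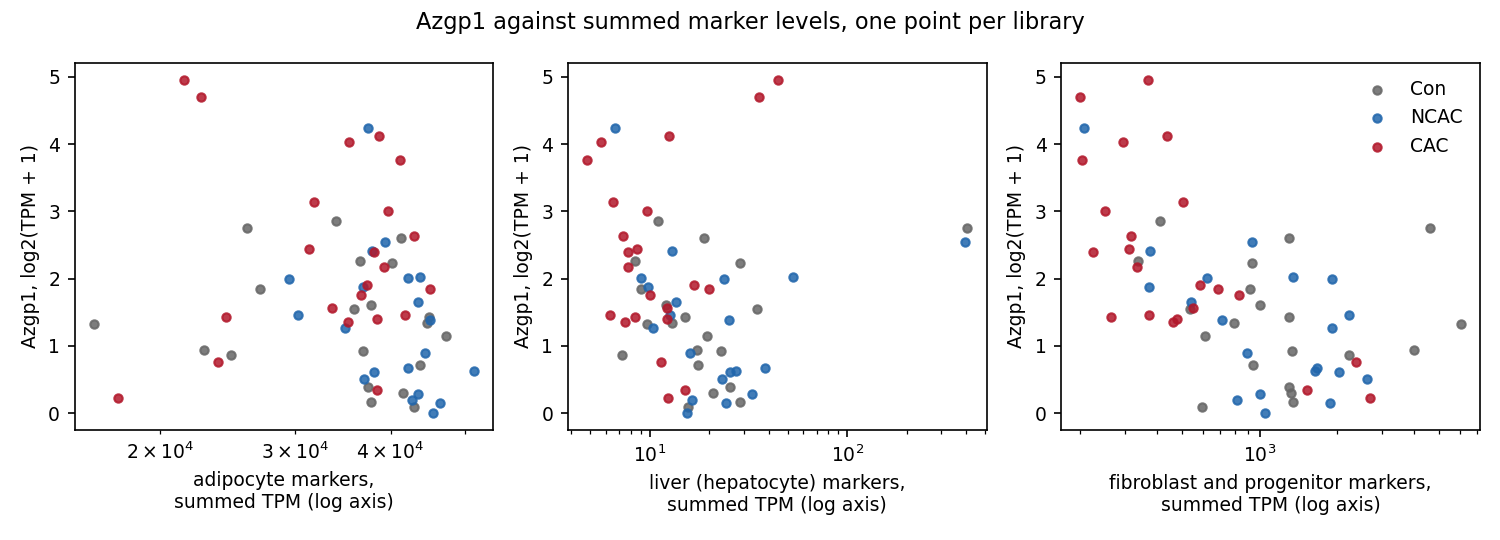
Azgp1 on the log2(TPM + 1) scale (vertical axes) against the summed TPM of adipocyte, liver and fibroblast markers (horizontal log axes), with 1 point per library coloured by arm. The 2 CAC libraries highest in Azgp1 have low adipocyte sums (21516 and 22621 TPM) and liver sums of 44.6 and 35.6 TPM, and the 2 libraries near 400 TPM of liver markers have Azgp1 of 4.85 and 5.76 TPM.

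The genes most like Azgp1 were sought across the 22 CAC libraries of all weeks by Pearson correlation of log2(TPM + 1), with Spearman rank correlation beside it. Correlations were given p-values by 100000 permutations and adjusted over 14576 genes. In this pooled set 900 genes (6.17%) passed, 367 with positive r (2.52%) and 533 with negative r (3.66%), and the median r over all genes was -0.14. By rank 313 genes passed (2.15%), 139 with positive rho (0.954%) and 174 with negative rho (1.19%). With mitochondrially encoded genes left out, 578 passed with positive r and 1863 with negative r. Pooled libraries share the week, and 7 of the 22 are from week 8, where Azgp1 was highest. With each week's mean removed and permutation within weeks, 140 genes (0.96%) passed, 49 positive (0.336%) and 91 negative (0.624%), and by rank 6 genes passed (0.0412%). Among genes with a mean of 10 TPM or more in CAC libraries, the 10 highest and 5 lowest r are described here from each analysis.

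Major urinary proteins, lipocalins that carry pheromones and are made mainly by the liver under hormonal control, headed the list. They filled 6 of the 10 highest places in the pooled analysis and 4 of 10 in the week-adjusted one. Mup7 had r = 0.93 (rho = 0.92) and Mup14 r = 0.93 (rho = 0.90), followed by Mup17 (0.90, rho 0.92), Mup9 (0.90, rho 0.92), Mup2 (0.86, rho 0.87) and Mup10 (0.86, rho 0.88). Each had a permutation adjusted p of 0.0026 for r and 0.0058 for rho, which rest on the smallest p that the permutations can give. Without CAC replicates 1 and 6 of week 8, the libraries farthest from the median Azgp1, the 6 values of r were between 0.84 and 0.89. Week-adjusted r was 0.87 for Mup7, 0.88 for Mup14, 0.83 for Mup17 and 0.84 for Mup9, each with a permutation adjusted p of 0.0182.

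In TPM, 8 of the 15 tested Mup genes averaged above Azgp1 (6.77 TPM) over the CAC libraries, at 19.3 to 1952 TPM, and the other 7 averaged 0.838 to 5.78 TPM. Mup7 had 4.46 TPM in the lowest, 138 in the median and 703 in the highest of the 7 CAC libraries at 8 weeks. In mock libraries it had 0.941, 21.7, 46.1, 7.76 and 3.24 TPM. Its highest values, 703 and 393 TPM, were in CAC replicates 1 and 6 and its lowest CAC value in replicate 2, the order seen for Azgp1 at these ends. The log2 difference of Mup7 between CAC and mock was 3.33 (SE 1.10) and did not pass (limma adjusted p = 0.112), nor did any other of the 15 tested Mup genes rise at 8 weeks.

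The family as a whole was examined after these values were seen. The table holds 48 Mup symbols, of which 15 passed the filter on low values. All 15 had r above 0 in CAC libraries and 12 passed, where 2.52% of all genes passed with positive r. With each week's mean removed 8 passed, beside 0.336% of all genes with positive r. In NCAC libraries 0 passed, beside 1.02% of all genes with positive r. In mock libraries 0 passed, as did 0 of all 14575 genes. Mup7 had r of 0.52 in NCAC and 0.65 in mock libraries with each week's mean removed, and passed in neither. The summed Mup level was 352 to 13312 TPM in CAC libraries at 8 weeks, with a median of 9802 TPM, and 118 to 3527 TPM in mock libraries. These genes are copies on chromosome 4. The coding sequences of Mup2, Mup10, Mup14 and Mup17 shared 98.5% to 99.3% of aligned positions, those of Mup7 and Mup9 99.15%, and the 2 sets shared 75.6% to 76.3%. Reads may be split among near-identical copies, so single Mup values are uncertain and the members that passed are not separate observations. The more divergent Mup3, at 63.6% to 83.2% identity to those 6, did not pass with Azgp1 (r = 0.09, rho = 0.11, permutation adjusted p = 0.846 and 0.81). Its r was 0.43 with each week's mean removed (permutation adjusted p = 0.254) and 0.59 within CAC libraries of week 8. It fell in CAC against mock at 6 weeks by 2.14 log2 units (SE 0.36; adjusted p = 0.0299 by limma), when 0.048% of genes fell.

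The highest 10 also held 4 genes outside the family. Hpd, the dioxygenase of tyrosine breakdown, had r = 0.89 (rho = 0.86) and Gcdh, the mitochondrial glutaryl-CoA dehydrogenase of lysine breakdown, r = 0.89 (rho = 0.81). Ccbl2, a kynurenine aminotransferase, had r = 0.85 (rho = 0.78), and Apoc3, an apolipoprotein that restrains lipoprotein lipase, r = 0.85 (rho = 0.86). Permutation adjusted p was 0.0026 for each r and at most 0.0144 for rho. Without the 2 farthest libraries r was 0.83, 0.83, 0.77 and 0.78 for these 4 genes.

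Hpd also rose between arms. It had 6.44 TPM in the lowest, 16.3 in the median and 90.9 in the highest CAC library at 8 weeks, and 1.20, 1.07, 3.23, 3.34 and 1.28 TPM in mock libraries. The 2 groups did not overlap, and the log2 difference was 2.87 (SE 0.58, limma adjusted p = 0.0241). Of all genes 2.79% had at least 6 of the 7 CAC libraries above every mock library, and 1.08% passed as higher. Gcdh rose by a smaller step, with 44.7 to 69.7 TPM in CAC and 32.1 to 41.6 TPM in mock libraries (log2 difference 0.64, SE 0.14, limma adjusted p = 0.0266). Apoc3 (2.98, SE 0.86, limma adjusted p = 0.0783) and Ccbl2 (1.38, SE 0.36, 0.0591) did not pass.

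The week-adjusted analysis kept 6 of the pooled 10 highest genes, the 4 Mup genes above with Hpd (r = 0.79) and Gcdh (r = 0.79). It added Samm50, of the outer mitochondrial membrane sorting machinery (r = 0.81), and Ehhadh, a peroxisomal enzyme of fatty acid oxidation (0.81). It also added St3gal6, a sialyltransferase (0.80), and Adtrp, a hydrolase of fatty acid esters of hydroxy fatty acids (0.80). Their permutation adjusted p lay between 0.0182 and 0.0312. Adtrp rose in CAC against mock at 8 weeks, from 29.2 ± 11.6 TPM (SD, n = 5) to 92.7 ± 37.3 TPM (SD, n = 7; log2 difference 1.62, SE 0.32, limma adjusted p = 0.0206).

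The genes that ran most against Azgp1 had moderate levels in CAC fat. Svip, an inhibitor of endoplasmic reticulum-associated degradation, had the lowest r in both analyses (-0.89, rho = -0.90, week-adjusted r = -0.84). It had 5.38 to 11.2 TPM in CAC and 10.98 to 15.99 TPM in mock libraries at 8 weeks. After median-ratio rescaling of the libraries its r was -0.47 (permutation adjusted p = 0.10). The others were Lhfpl2 (r = -0.84, rho = -0.83), the cytoskeletal adaptor Tln2 (-0.82, rho -0.79), the resistin-like cytokine Retnla (-0.82, rho -0.80) and Phgdh, the first enzyme of serine synthesis (-0.81, rho -0.73). Their permutation adjusted p was at most 0.0037 for r and 0.0190 for rho. Without the 2 farthest libraries r was -0.84 for Svip, -0.86 for Lhfpl2, -0.84 for Tln2, -0.82 for Retnla and -0.70 for Phgdh. Lhfpl2 (-1.76, SE 0.37, limma adjusted p = 0.0258) and Retnla (-1.54, SE 0.38, 0.0451) also fell in CAC against mock at 8 weeks, beside 1.99% of all genes. They too were picked by r in libraries that include the CAC libraries compared there, so these falls are not independent of the choice.

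In the week-adjusted set Svip was followed by Nipsnap3b (r = -0.81), the GPI-anchor transamidase subunit Pigk (-0.81), the small GTPase Rab29 (-0.81) and the aggrecan-degrading protease Adamts5 (-0.80). After median-ratio rescaling the week-adjusted r of Svip, Nipsnap3b and Pigk was -0.20, -0.27 and -0.080.

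**Figure D4:**
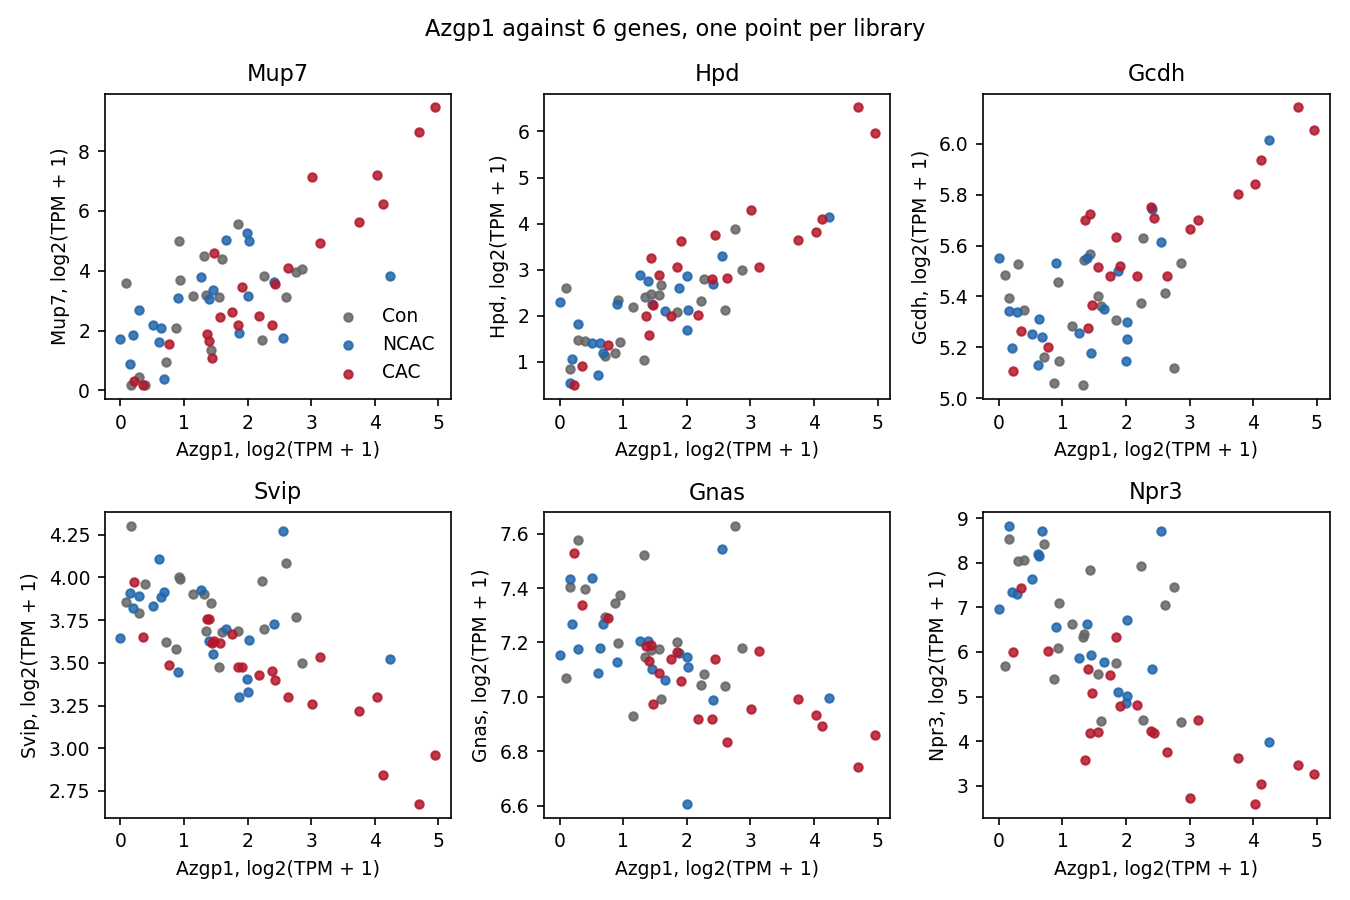
Each panel plots 1 gene on the log2(TPM + 1) scale (vertical axis) against Azgp1 (horizontal axis), with 1 point per library coloured by arm. Across CAC libraries Mup7, Hpd and Gcdh have r of 0.93, 0.89 and 0.89 with Azgp1, and Svip, Gnas and Npr3 have r of -0.89, -0.80 and -0.78; the r of Svip and Gnas was -0.47 and -0.27 after median-ratio rescaling.

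Within the 7 CAC libraries of week 8 alone no gene passed (exact permutation, adjusted over 14574 genes; 0 genes by either measure). Mup14 had r = 0.97 (rho = 0.93, exact p = 0.00079, adjusted p = 0.750) and Gcdh r = 0.96 (rho = 0.96). In the 11 CAC libraries without a urothelial sum above 100 TPM no gene passed either, while 885 genes had an unadjusted permutation p under 0.05. There Mup7 had r = 0.91, Hpd 0.94, Gcdh 0.88 and Svip -0.85.

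Pooled over weeks in the same way, fewer genes passed in the other arms, and no difference in r between arms was tested. In the 20 NCAC libraries 677 genes (4.64%) passed, 149 with positive r (1.02%) and 528 with negative r (3.62%), and by rank correlation none passed (lowest and highest Azgp1 there were 0 and 17.9 TPM). Hpd had r = 0.80 (rho = 0.66, permutation adjusted p = 0.0304 and 0.0857) and Mup7 r = 0.54 (rho = 0.62, 0.0967 and 0.0895). Svip had r = -0.32 there. With the 2 libraries farthest from the median left out, r was 0.78 for Hpd and 0.55 for Mup7. In the 20 mock libraries no gene passed by either measure, and Hpd had r = 0.67 (rho = 0.60) and Mup7 0.49 (rho = 0.48). These r were 0.51 and 0.44 without the 2 farthest libraries.

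Lipolysis is the process most often linked to this glycoprotein. Pnpla2, the lipase that starts triglyceride breakdown, had r = 0.63 with Azgp1 across CAC libraries (rho = 0.62, permutation adjusted p = 0.0324 and 0.0735). Its coactivator Abhd5 had r = 0.64 (rho = 0.64, 0.0324 and 0.0648). Lipe, hormone-sensitive lipase, had r = -0.02 (rho = -0.0028). Of the 12 genes for lipolysis enzymes and lipid droplets Pnpla2 and Abhd5 passed by r, where 2.52% of all genes passed with positive r. None passed by rho or after adjustment for week, and the list's median r was -0.03, beside -0.14 over all genes. With the 2 farthest libraries left out r was 0.61 for Pnpla2 and 0.67 for Abhd5.

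Between CAC and mock at 8 weeks, Abhd5 was the 1 of these 12 genes that rose, by 1.00 (SE 0.21, limma adjusted p = 0.0266), from 131 ± 38.2 TPM (SD, n = 5) to 260.45 ± 60.2 TPM (SD, n = 7). Leaving out 1 library at a time kept that call in 7 of 12 fits, with a limma adjusted p of up to 0.0636 without mock replicate 5. Pnpla2 had 900.01 to 1839 TPM in mock and 1710 to 3029 TPM in CAC libraries (log2 difference 0.76, SE 0.21, limma adjusted p = 0.0688). Lipe differed by 0.07 (SE 0.22, limma adjusted p = 0.913). No member passed at 6 weeks, when 52 of 14571 genes (0.357%) did. The list's median difference at 8 weeks was 0.08, beside -0.08 over all genes, of which 1.08% passed as higher.

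Of 16 receptors and signalling genes upstream of lipolysis, 4 passed with negative r and none with positive r across CAC libraries. Over all genes 3.66% passed with negative r. The list's median r was -0.22, beside -0.14 over all genes, and -0.21 beside -0.23 with each week's mean removed. Those that passed were Gnas, the stimulatory G protein subunit (r = -0.80, rho = -0.78), and Npr3, the natriuretic peptide clearance receptor (-0.78, rho -0.75). The remaining 2 were Adrb3, the beta-adrenergic receptor of fat (-0.63, rho -0.50), and the adenylyl cyclase Adcy6 (-0.61, rho -0.52). Their permutation adjusted p for r were 0.0026, 0.0047, 0.0378 and 0.0459, and by rank Gnas (0.0089) and Npr3 (0.0175) passed. The 4 values of r were -0.75, -0.79, -0.43 and -0.51 without the 2 farthest libraries, where the median over all genes was -0.42. Only Gnas passed after adjustment for week (r = -0.77, permutation adjusted p = 0.0260). Its r was -0.27 pooled and 0.016 week-adjusted after median-ratio rescaling, so its direction depends on how the libraries are scaled.

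Npr3 was the one gene of these 16 that fell at 8 weeks, from 342, 80.2, 52.8, 132 and 40.8 TPM in mock libraries to 5.02 to 21.1 TPM (median 8.59) in the 7 CAC libraries. The groups did not overlap, and the log2 change was -3.20 (SE 0.48, limma adjusted p = 0.0082). Adora1, an inhibitory adenosine receptor, rose by 0.93 (SE 0.19, limma adjusted p = 0.0241; 0.0525 without CAC replicate 7). Adrb3 differed by -1.16 (SE 0.45, limma adjusted p = 0.163). Of all genes 1.99% passed as lower and 1.08% as higher at 8 weeks. The list's median difference was -0.21, beside -0.08 over all genes.

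Of 15 genes of glucocorticoid activation and response, 13 had positive r across CAC libraries, and the median r was 0.41, beside -0.14 over all genes. Of the 15, 3 passed, where 2.52% of all genes passed with positive r. The 3 were the phosphatidate phosphatase Lpin1 (r = 0.71, rho = 0.65), the glucocorticoid-activating enzyme Hsd11b1 (0.66, rho 0.59) and the receptor chaperone Fkbp5 (0.63, rho 0.58), with permutation adjusted p of 0.0126, 0.0277 and 0.0365. None passed by rank (lowest adjusted p of the 3, 0.0573), and after adjustment for week none passed and the median r was 0.08, beside -0.23 over all genes. Leaving out the 2 farthest libraries gave r of 0.55, 0.66 and 0.51.

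In the comparison of arms, members of this list passed already at 6 weeks. There, where the Azgp1 difference was -0.04, Fkbp5 (2.53, SE 0.37, limma adjusted p = 0.0138) and the metallothioneins Mt1 (3.10, SE 0.34, 0.0020) and Mt2 (4.21, SE 0.67, 0.0229) were higher, 3 of 15 genes against a background of 0.309% of genes higher. The Mt2 call was kept in 4 of 10 fits without 1 library, with limma adjusted p of up to 0.0770 without mock replicate 1. At 8 weeks 5 of 15 rose, beside 1.08% of all genes: Fkbp5 (3.76, SE 0.62), Hsd11b1 (1.98, SE 0.21), Tsc22d3 (1.65, SE 0.34), Mt1 (3.87, SE 0.79) and Mt2 (4.88, SE 0.99), with limma adjusted p of 0.0118, 0.0014, 0.0242, 0.0241 and 0.0241. Without 1 library the calls of Fkbp5 and Hsd11b1 held in all 12 fits. Mt1 and Mt2 held in 9 each (0.0546 and 0.0535 without CAC replicate 7), and Tsc22d3 in 8 (0.0585 without mock replicate 2). The receptor Nr3c1 itself differed by -0.51 (SE 0.19, limma adjusted p = 0.145). Fkbp5 had 17.9 TPM in the lowest, 181 in the median and 442 in the highest CAC library at 8 weeks, and 6.64, 10.7, 7.82, 14.5 and 21.4 TPM in mock libraries. Its highest value was in CAC replicate 6, but replicate 2, lowest in Azgp1, had 172 TPM of Fkbp5, and replicate 3, at 17.9 TPM, was the one CAC library inside the mock range.

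Acute-phase proteins are plasma proteins whose synthesis rises in inflammation. Itih4, an inter-alpha-trypsin inhibitor heavy chain released into plasma, was the 1 of 15 members that passed with Azgp1 across CAC libraries (r = 0.73, rho = 0.70, permutation adjusted p = 0.0110 and 0.0323; r = 0.70 without the 2 farthest libraries). Haptoglobin, Hp, had r = 0.37 (rho = 0.17). With positive r 2.52% of all genes passed, and no member of the list did after adjustment for week. In mock libraries Itih4 had r = 0.76 with Azgp1 (permutation adjusted p = 0.389).

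At 6 weeks 5 of the 15 were higher in CAC than in mock tissue, where 0.309% of all genes were. They were Itih4 (5.99, SE 0.31, limma adjusted p = 6.8e-06), Hp (4.31, SE 0.52, 0.0047), Lcn2 (3.84, SE 0.50, 0.0082), Serpina3n (3.23, SE 0.33, 0.0011) and Lrg1 (3.59, SE 0.65, 0.0472; 0.143 without mock replicate 1). At 8 weeks 6 were higher, beside 1.08% of all genes: Itih4 (6.87, SE 0.46, limma adjusted p = 1.5e-05), Hp (3.94, SE 0.71, 0.0160), Serpina3n (3.45, SE 0.59, 0.0129), the oncostatin M receptor Osmr (1.30, SE 0.33, 0.0489), Saa1 (0.0355) and Saa2 (0.0341). The last 2 are near-identical copies listed at 0 in all mock libraries at 8 weeks, with 0.392 to 38.2 and 0.195 to 44.6 TPM in CAC libraries. The calls of Itih4, Hp and Serpina3n held in all 12 fits without 1 library. Saa1 and Saa2 held in 3 each (0.0747 and 0.0743 without CAC replicate 6) and Osmr in 1 (0.106 without mock replicate 5).

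Among 14 genes of fatty acid synthesis, Acacb, the mitochondrial acetyl-CoA carboxylase, had r = 0.72 (rho = 0.73, permutation adjusted p = 0.0095 and 0.0238; 0.74 without the 2 farthest libraries). Among the 112 genes of the 9 pathway lists, cell markers aside, it was 1 of 2 that passed after adjustment for week (r = 0.67, permutation adjusted p = 0.0260), with Gnas. Over all genes 0.96% passed there. Mlxipl, the carbohydrate-response transcription factor, had r = 0.72 (rho = 0.65, 0.0098 and 0.0548; 0.72 without the 2 farthest libraries) and rose by 0.99 at 8 weeks (SE 0.24, limma adjusted p = 0.0420; 0.0978 without mock replicate 2). Fasn, fatty acid synthase, had r = 0.18 (rho = 0.23). Of the 14 genes 2 passed with positive r in the pooled libraries, beside 2.52% of all genes. The list's median r was 0.05, beside -0.14 over all genes. At 8 weeks 1 of the 14 rose, beside 1.08% of all genes.

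Among 16 genes of adipocyte identity, leptin (Lep) ran against Azgp1 (r = -0.74, rho = -0.68, permutation adjusted p = 0.0102 and 0.0443). Pparg, the regulator of fat cell differentiation, ran with it (r = 0.67, rho = 0.74, 0.0247 and 0.0190). Leaving out the 2 farthest libraries gave r of -0.57 and 0.66, beside a median of -0.42 over all genes. Adiponectin, Adipoq, had r = -0.15 (rho = -0.12). The list's median r was -0.04, beside -0.14 over all genes, of which 3.66% passed with negative r and 2.52% with positive r. At 8 weeks Cfd, adipsin, was the 1 member of 16 that rose (0.92, SE 0.21, limma adjusted p = 0.0373; 0.0852 without CAC replicate 7), beside 1.08% of all genes. The list's median difference there was -0.02, beside -0.08 over all genes.

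None of 8 genes of the MHC class I-like fold and its partner B2m passed in CAC fat, by correlation or between CAC and mock at 6 or 8 weeks. Of 10 genes for zinc transport and storage none passed by correlation, and Mt1 and Mt2 were those that rose at both weeks. Of all genes 0.309% rose at 6 weeks and 1.08% at 8 weeks.

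Thermogenic genes set the 2 melanoma arms side by side. Across CAC libraries 2 of 12 passed with positive r, beside 2.52% of all genes. They were the potassium channel Kcnk3 (0.73, rho 0.64) and the fatty acid elongase Elovl3 (0.69, rho 0.64). Their permutation adjusted p were 0.0110 and 0.0193 for r and 0.0626 and 0.0582 for rho. The 12 genes had a median r of 0.38, beside -0.14 over all genes. Across NCAC libraries 9 of 12 passed with positive r, as did 1.02% of all genes, among them Kcnk3 (0.79, rho 0.79), the lipid droplet protein Cidea (0.73, rho 0.77) and Ucp1, the uncoupling protein of brown and beige fat (0.71, rho 0.73). Permutation adjusted p were 0.0304, 0.0341 and 0.0358 for r, and 0.0787 for each rho, and by rank none of the 12 passed. The median r was 0.70, beside -0.28 over all genes. For these 3 genes r was 0.69, 0.75 and 0.76 without the 2 NCAC libraries farthest from the median. Without NCAC replicate 3 of week 8, the highest in Azgp1, all 12 r stayed positive, from 0.37 to 0.81, with a median of 0.73. In the same NCAC libraries all 7 macrophage markers had negative r with Azgp1 (median -0.65, 4 passed: Csf1r, Mrc1, C1qa and C1qb). All 8 fibroblast markers did too (median -0.54, 3 passed: Dpt, Col3a1 and Mfap5). Over all genes 3.62% passed with negative r there. None of these macrophage and fibroblast markers passed by rank, and the part of these cells in the thermogenic correlations was not tested. Ucp1 had r = 0.34 in CAC libraries (rho = 0.13) and 0.03 in mock libraries. No thermogenic gene passed between CAC and mock at 6 or 8 weeks, where 12 and 10 of the 12 differences were positive, with medians of 1.54 and 0.66. Between CAC and NCAC at 8 weeks all 12 differences were positive, with a median of 2.21 beside -0.03 over all genes. Cidea (3.28, SE 0.64), Cox7a1 (2.35, SE 0.46) and Cpt1b (2.96, SE 0.55) passed there, with limma adjusted p of 0.0442, 0.0455 and 0.0409. These calls held in 2 of 12 fits without 1 library, those without CAC replicate 3 and without NCAC replicate 3, in which 4 and 10 of the 12 genes passed. In each of the other 10 fits 0 passed by limma, with adjusted p of up to 0.147 for Cidea and 0.170 for Cox7a1 without NCAC replicate 2 and 0.141 for Cpt1b without NCAC replicate 4. The median difference lay between 1.96 and 2.83 in the 12 fits. With the stromal covariate 0 of the 12 genes passed and the median difference was 1.165. With a urothelial covariate 0 passed (median 2.46), and with library weights all 12 passed (median 2.55).

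**Figure D5:**
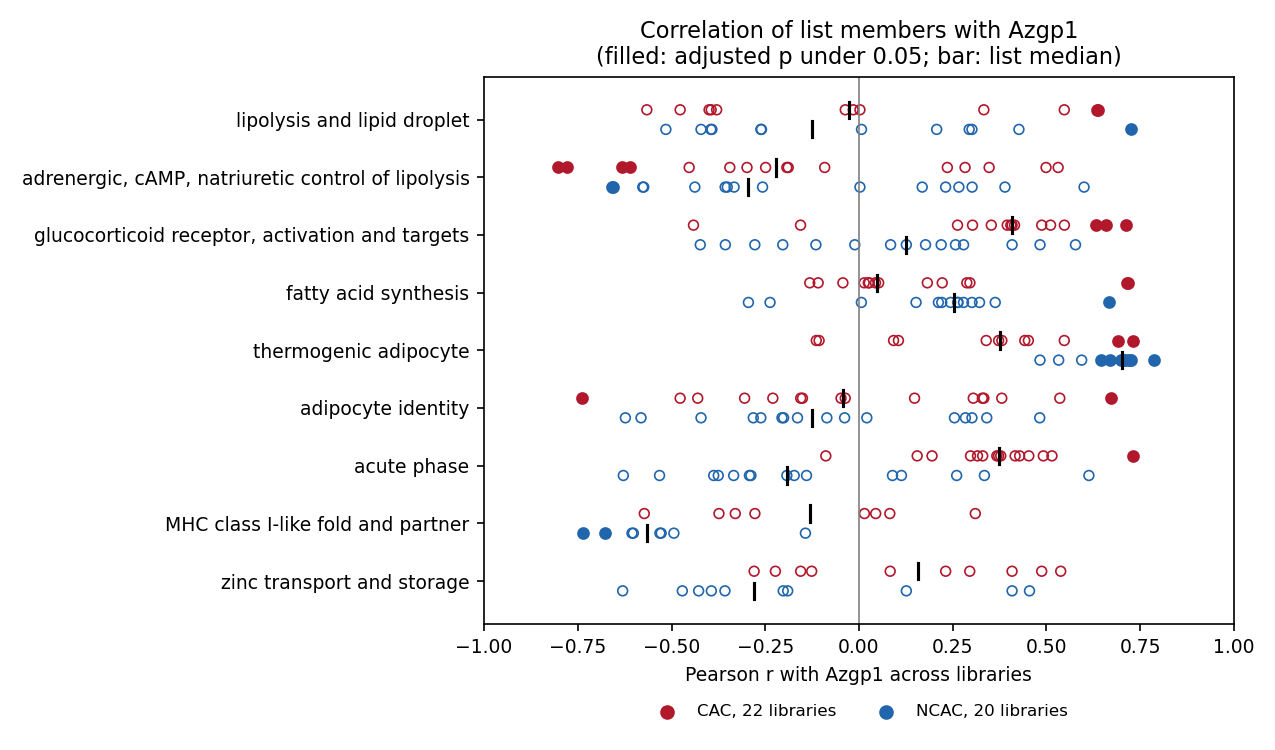
Pearson r with Azgp1 (horizontal axis) for each member of 9 gene lists (rows), across the 22 CAC libraries (red, upper line) and the 20 NCAC libraries (blue, lower line). Filled points have permutation adjusted p under 0.05 and black bars are list medians; the thermogenic median is 0.38 in CAC and 0.70 in NCAC libraries, and the glucocorticoid median 0.41 and 0.13.

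The genes beside Azgp1 on chromosome 5 did not rise with it. The 3 nearest tested genes at lower coordinates, the immune receptor genes Pilrb2, Pilrb1 and Pilra, had r of -0.61, -0.68 and -0.63 with Azgp1 in CAC libraries (rho -0.62, -0.64 and -0.63, permutation adjusted p 0.0498, 0.0193 and 0.0355 for r and 0.0720, 0.0642 and 0.0694 for rho). Their r was -0.55, -0.64 and -0.66 with the 2 farthest libraries left out, where the median over all genes was -0.42. Pilrb1 (-1.15, SE 0.22, limma adjusted p = 0.0209) and Pilra (-0.68, SE 0.16, 0.0391) fell at 8 weeks. These 3 genes had means of 0.842 to 1.53 TPM. The zinc finger genes Zkscan1, Zscan21 and Zfp113 at higher coordinates had r of -0.01, -0.04 and 0.15 (rho -0.27, -0.10 and -0.11), with permutation adjusted p of 0.496 or more for both measures. Without the 2 farthest libraries r was -0.57, -0.43 and -0.48, again beside -0.42 over all genes. None of the zinc finger genes differed at 8 weeks (limma adjusted p of 0.750 to 0.980).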

How the data were processed

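The authors deposited 1 table of TPM for 62 libraries, each summing to 1000000 TPM. Libraries were made with a stranded mRNA kit, per the labels' protocols. The submitters' processing notes name mm10. Which aligner, counter and annotation were used is not given in the sources used here. Without the depth of each library, counting intervals could not be given. The labels' protocol also mentions 3 weeks after LLC cells, which no description carries.

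Values were taken as log2(TPM + 1), and genes averaging 0.5 TPM or more over all libraries were tested. Each pair of groups was fitted alone with limma 3.58.1 (trend and robust) in R 4.3.3, adjusted by Benjamini-Hochberg. On data simulated for the 8 week comparison of CAC and mock (14577 genes), 59 of 100 genes changed by 1 and 94 of 100 changed by 2 on the log2 scale were recovered. The changed genes were drawn from those with a mean log2(TPM + 1) of at least 2, and values were simulated as normal and independent between genes. These rates therefore do not cover lower genes or library makeup shared between genes. No column was left unmapped. Single-gene tests were exact permutations (scipy 1.17.1).

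The gene, the lists, the markers and the rules for naming genes were chosen with earlier results of these data known. Named were the 10 highest and 5 lowest correlates above 10 TPM, called list members with a fixed set of lipolysis, glucocorticoid, adipocyte and acute-phase genes, and 3 neighbours on each side. Replicate numbers were not taken to pair libraries: in 0 of 12 comparisons did all pairs' deviations correlate above 0.1, a check that partial pairing could also fail.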

Additional observations from a re-analysis of the deposited data

Results flagged for a closer look

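In 2 of the 12 groups 1 library stood apart from the rest of its group in Azgp1 by Dixon's test on TPM. Its rate of about 1 in 20 groups by chance holds for normally distributed values, which TPM need not be. The number of groups flagged is therefore not set against that rate. In NCAC tissue at 8 weeks replicate 3 had 17.9 TPM, and its gap to the next library was 0.93 of the group's range (critical value 0.71). In CAC tissue at 6 weeks replicate 5 had 12.5 TPM, with a gap of 0.74 of the range. On the log2(TPM + 1) scale, on which Dixon's test was not made, it had 3.76, the next library 2.44 and the lowest 1.36. NCAC replicate 3 also had the lowest fibroblast marker sum of its group (207 TPM, against 816 to 2036 TPM in the other 4) and 16.7 TPM of Hpd, against 0.644 to 6.35 TPM. Across all 20 NCAC libraries, replicate 3 included, Hpd had r = 0.80 with Azgp1 (rho = 0.66, permutation adjusted p = 0.0304 and 0.0857). Without replicate 3 its r was 0.70. The 8 fibroblast markers had a median r of -0.54 in the 20 libraries, beside -0.28 over all genes.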

How the results depend on the processing

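Limits come first. Read depth is unknown, Azgp1 lay under 5 TPM in most libraries, and strain, depot and tumour line are not settled by the labels. A mean filter of 5 TPM dropped Azgp1 itself (mean 3.86 TPM) and gave no value.

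For CAC against mock at 8 weeks the log2 difference stayed positive under all 24 alternatives, but the call was lost with no filter on low values (2.17, adjusted p = 0.0804), a urothelial covariate (1.82, 0.0762), urothelial libraries left out (2.07, 0.358), a stromal covariate (1.62, 0.591) and, added after seeing the data, without both libraries lowest in adipocyte markers (1.70, 0.106). It held with a pseudocount of 0.1, median-ratio rescaling, mitochondrially encoded genes left out, all 62 libraries in 1 fit, library weights and, added later, a liver covariate (adjusted p from 0.0063 to 0.0374). Median-ratio rescaling moved the median of all genes at 8 weeks from -0.08 to 0.0042. The genes called there ranged from 0 (stromal covariate) to 2061 (mitochondrially encoded genes left out, 250 higher and 1811 lower).

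With replicate number as a block the difference was 2.09 (adjusted p = 0.210) and 30 genes were called, against 448 without it. Same-numbered deviations correlated between -0.65 and 0.57, and in 0 of 12 comparisons did every library correlate best with its own number. At 8 weeks 1 of 5 did so in CAC against mock and 3 of 5 in CAC against NCAC. These checks cannot tell partial pairing from none. The block changed no other call of Azgp1.

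The test was passed by CAC against NCAC at 8 weeks with all 62 libraries in 1 fit (2.26, adjusted p = 0.0058) and with library weights (2.70, 0.0050). It was not passed under the others, which gave 0.89 (stromal covariate) to 3.20 (pseudocount of 0.1). It was passed by CAC week 8 against week 2 with median-ratio rescaling (2.15, 0.0497), all 62 libraries (2.26, 0.0032), library weights (1.67, 0.0156) and the liver covariate (2.22, 0.0358).

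Several differences that had not passed changed sign, and none was called. CAC against mock and against NCAC at 4 weeks, 0.91 and 0.60 without a covariate, were among them. NCAC against mock at 2 weeks gave -0.54 with library weights, -0.18 without urothelial libraries and -0.027 with the liver covariate. With the liver covariate CAC differed from mock by -0.15 at 4 weeks and 0.0011 at 6 weeks, and from NCAC by -0.24 and -0.32. A stromal covariate gave -0.72 for CAC against NCAC at 6 weeks. Without urothelial libraries NCAC against mock at 8 weeks was 0.012 (0.27 with the liver covariate), and the NCAC effect of week 8 over week 2 was 0.19.

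Leaving out 1 library gave 1.96 to 2.52 for CAC against mock at 8 weeks, 1.96 to 2.97 for CAC against NCAC at 8 weeks and 1.97 to 2.61 for CAC week 8 against week 2. It gave -0.076 to 0.49 for CAC against NCAC and -0.18 to 0.38 for NCAC against mock at 2 weeks, and -0.41 to 0.19 for CAC against mock at 6 weeks. It gave -0.79 to 0.22 for NCAC against mock at 8 weeks, -0.55 to 0.50 for NCAC week 8 against week 2 and -0.94 to 0.10 for the NCAC effect of week 8 over week 2.

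Genes correlated with Azgp1 in CAC numbered 900 pooled and 140 week-adjusted. They numbered 2108 and 471 with a pseudocount of 0.1, 2277 (1059 positive) and 604 (257 positive) after median-ratio rescaling, and 2441 (578 positive) and 334 (97 positive) without mitochondrially encoded genes. They numbered 313 and 6 by Spearman rank, 0 and 0 in the 11 libraries without urothelial transcripts, and 5750 (589 positive) and 7094 (385 positive) without the 2 farthest libraries. With no filter 44 passed week-adjusted. Week-adjusted r of Gnas was 0.016 after median-ratio rescaling. The cause was not tested.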
